A study of Mus musculus with 9 samples.

Results

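Doxycycline (dox) switched on a RUNX2 transgene, in the absence of oestradiol (E2), in primary osteoblasts from the calvaria of newborn mice, and 2 dox arrays were compared with 2 vehicle arrays. These 4 arrays were all those titled as dox or vehicle treatment among the 9 Illumina mouse bead arrays of the study. The other 5 arrays were E2 (n = 3, 10 nM E2) and dox plus E2 (n = 2, 500 ng/ml of dox and 10 nM E2). Those cells were also kept for 48 h with 20% serum. Their arrays lay on slide 2, so E2 and slide cannot be told apart. All cells, the vehicle cells included, carried a lentivirus that expresses RUNX2 only when dox is present. The dox cells received 500 ng/ml of dox and no E2, the vehicle cells received neither, and both were kept for 48 h in medium with 20% charcoal-stripped serum, from which steroid hormones are removed. The groups are called dox (n = 2) and vehicle (n = 2). No arrays of dox-treated cells without the transgene were analysed here, so the action of dox and that of RUNX2 cannot be told apart. All 4 arrays lay on slide 1 (the dox arrays at positions E and F, the vehicle arrays at A and B), so position and group cannot be told apart either. Whether the replicates were separate cultures or animals is not stated in the labels, and the p-values then cover only the spread between these arrays, which may be technical.

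RUNX2 is the transcription factor that commits mesenchymal cells to the osteoblast lineage. It binds a short core sequence through its Runt domain and acts with Sp7 (osterix), a zinc-finger factor that lies downstream of it, to switch on genes of the bone matrix such as osteocalcin and of mineralisation such as tissue-nonspecific alkaline phosphatase. Osteoblasts also steer bone resorption, through RANKL (Tnfsf11), the cytokine from which osteoclasts form. The comparison asks which genes differ when RUNX2 is induced with no E2 in the medium.

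Levels are log2 normalized signals after background correction, on which 1 unit is a doubling, and levels of different genes are not compared because they come from different probes. A probe was above background on an array where its detection p-value was under 0.05. Of 25697 probes, 11939 and 11900 were above background on the dox arrays, against 11633 and 11671 on the vehicle arrays. The fit covered 9490 genes, of which 8054 had a probe above background on all 4 arrays and 216 on none of them. In a further 90 genes the probe was above background on both dox arrays and neither vehicle array, and in 49 on both vehicle arrays and neither dox array. Because RNA of whole cultures was measured, fewer cells of a type and less RNA per cell cannot be told apart.

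The cells carried the osteoblast label with part of its markers. Of 14 osteoblast markers, 8 were above background on all 4 arrays, among them Col1a1, Sparc, Spp1, Sp7 and Alpl, while Ibsp, Dlx5, Runx2 and Phospho1 were below background on every one. The Runx2 probes (lowest detection p-values on any array 0.294 and 0.368) therefore gave no reading of the transgene. The chondrocyte marker Col2a1, the main collagen of cartilage, was also far above background, at 14.62 and 14.67 in the dox arrays and 14.59 and 14.60 in the vehicle arrays. Other lists were also partly above background on all 4 arrays: 6 of 11 chondrocyte and 5 of 9 smooth muscle and pericyte markers. The same held for 8 of 14 heart and skeletal muscle markers with a probe and 3 of 9 osteocyte markers. Markers of macrophages and osteoclasts, lymphocytes, endothelium and fat cells were mostly below background on all 4 arrays, with some exceptions.

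Of the macrophage and osteoclast markers with a probe, 10 of 15 were below background on all 4 arrays, among them Csf1r, Ptprc, Cd68 and Adgre1, while Ctsk and Cd14 were above it on all 4. The same held for 9 of 12 lymphocyte markers (among them Cd3e, Cd8a, Nkg7 and Gzmb), with Prf1 above it on all 4. In endothelium 7 of 10 were below background throughout (among them Pecam1 and Cdh5) and Eng and Flt1 above it on all 4, and in fat cells 8 of 10 (among them Adipoq and Fabp4), with Pparg and Lpl above it. Summed over the tested members, the linear normalized signal of the lymphocyte markers was 346 and 442 in dox arrays and 316 and 430 in vehicle arrays. For the endothelial markers it was 2567 and 2169 in dox arrays against 2383 and 2555 in vehicle arrays, so these sums overlapped. Flt1, a receptor of vascular endothelial growth factor, read 6.95 and 7.11 with dox against 6.55 and 6.21 with vehicle (0.65 ± 0.22, adjusted p = 0.633). Tek, the angiopoietin receptor, read 5.64 and 6.49 with dox against 5.53 and 5.35 with vehicle, below background on both vehicle arrays (adjusted p = 0.727). Both dox arrays were the higher ones for Flt1 and Tek, which had an unadjusted p under 0.05 and did not pass the adjusted threshold. Of the 4 endothelial markers tested, these 2 had positive differences and the other 2 negative ones, down to -0.13. The sums were 3803 and 3969 in dox against 4218 and 3687 in vehicle for macrophage and osteoclast markers, and 1300 and 1142 in dox against 1295 and 1079 in vehicle for fat cell markers. The part of these other cell types in the results was not tested.

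Most genes differed little between dox and vehicle. The dox minus vehicle difference (log2, fitted in limma) had a median of -0.01 over all genes, and 83.4% of genes lay within 0.25 of 0. Fitted differences over 1 were found for 5 genes in the higher direction and 3 in the lower, and differences over 0.5 for 116 and 117 genes. At an adjusted p under 0.05, 3 genes rose with dox (0.0316% of the genes tested) and 0 fell. At an unadjusted p under 0.05, 303 genes were higher (3.19%) and 339 lower (3.57%), together 6.77% of the genes tested. Both dox arrays lay above both vehicle arrays in 1603 genes (16.9%) and below both in 2010 genes (21.2%), together 38.1% of genes. With so few arrays, groups that do not differ are also free of overlap in part of the genes, so these counts are a description. A gap of at least 0.5 between the groups was much rarer, with 28 genes higher and 12 lower. Past the adjusted threshold, 5 genes were higher and 6 lower without dox replicate 1, and 5 higher without E2 replicate 1. Without vehicle replicate 1 the unadjusted counts were 192 higher and 196 lower, and without vehicle replicate 2 they included 221 lower.

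**Figure D1:**
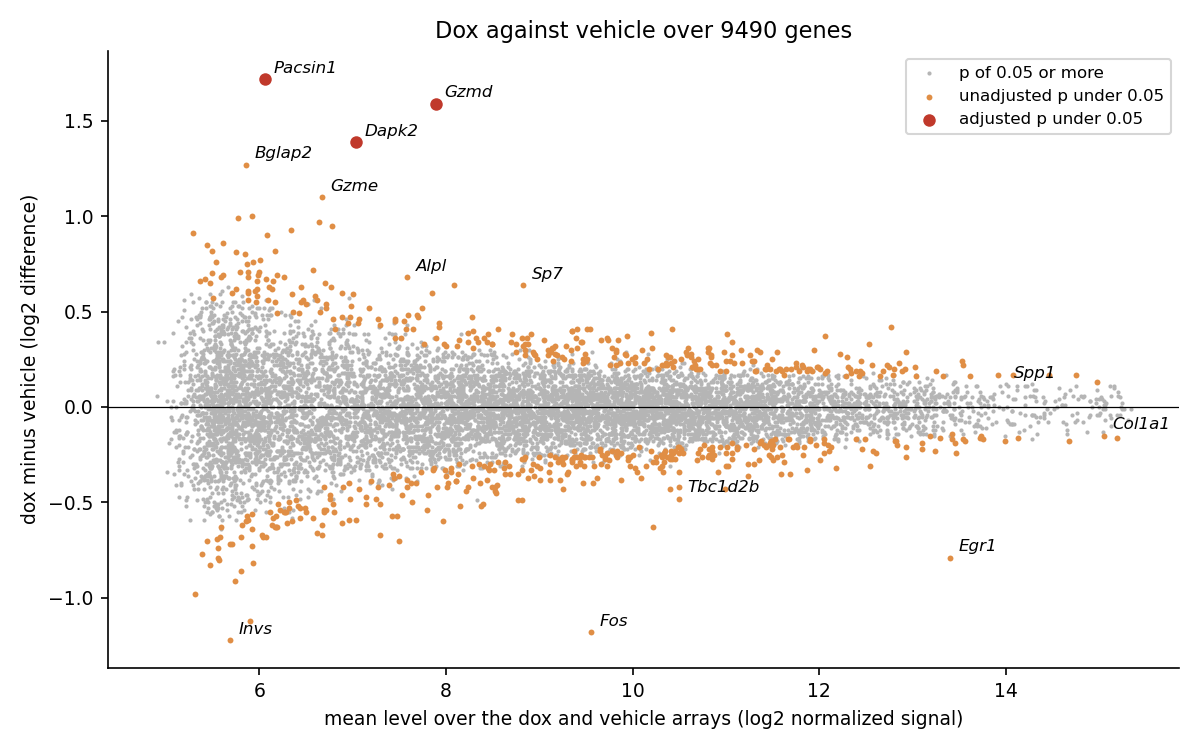
Dox minus vehicle difference (log2, vertical axis) against the mean level over the 4 arrays (log2 normalized signal, horizontal axis) for 9490 genes, with points coloured by the limma p-value. Gzmd, Dapk2 and Pacsin1 stand above the cloud, which narrows toward high levels, and Fos lies below it although its adjusted p is 0.633.

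The spread of the differences followed the level. In the quartile of lowest level (4.90 to 6.65) the median size of the dox minus vehicle difference was 0.19, while the dox replicates differed from each other by a median of 0.28 and the vehicle replicates by 0.25. In the quartile of highest level (10.38 to 15.33) those medians were 0.07, 0.09 and 0.07. The number of genes at an unadjusted p under 0.05 ran the other way, from 112 in the lowest quartile through 131 and 172 to 227 in the highest. Large differences were thus read mostly from dim probes, and small ones with a narrow error from bright probes: 190 of the genes with a difference over 0.5 lay in the lowest quartile and 1 in the highest.

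Because RUNX2 acts through a core site, the sequence in front of the genes that passed the adjusted threshold, of Gzme and of osteocalcin was searched for it. The 250 bases before the annotated start, in the direction of the gene, were taken from RefSeq (GRCm38.p6). The core was searched as TGTGGT and as its reverse complement ACCACA, and matches stand in capitals. The order is Gzmd (chr14:56132594-56132843, minus strand), its neighbour Gzme (chr14:56120626-56120875, minus strand), Pacsin1 (chr17:27684989-27685238, plus strand), Dapk2 (chr9:66157976-66158225, plus strand) and the osteocalcin gene Bglap (chr3:88384467-88384716, minus strand).
Gzmd: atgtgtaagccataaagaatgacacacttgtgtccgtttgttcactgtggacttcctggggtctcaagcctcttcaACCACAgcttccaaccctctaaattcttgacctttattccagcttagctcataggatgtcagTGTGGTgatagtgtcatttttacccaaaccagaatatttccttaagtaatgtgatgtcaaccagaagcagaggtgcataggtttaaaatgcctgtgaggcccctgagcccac
Gzme: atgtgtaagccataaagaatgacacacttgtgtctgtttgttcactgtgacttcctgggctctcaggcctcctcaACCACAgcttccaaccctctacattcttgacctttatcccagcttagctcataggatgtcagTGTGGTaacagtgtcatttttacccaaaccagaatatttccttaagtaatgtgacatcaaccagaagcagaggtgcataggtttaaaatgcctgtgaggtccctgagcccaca
Pacsin1: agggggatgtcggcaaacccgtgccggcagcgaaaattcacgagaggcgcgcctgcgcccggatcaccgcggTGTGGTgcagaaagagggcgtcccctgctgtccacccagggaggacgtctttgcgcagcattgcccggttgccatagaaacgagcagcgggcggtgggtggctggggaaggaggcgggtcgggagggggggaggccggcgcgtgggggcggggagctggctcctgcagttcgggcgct
Dapk2: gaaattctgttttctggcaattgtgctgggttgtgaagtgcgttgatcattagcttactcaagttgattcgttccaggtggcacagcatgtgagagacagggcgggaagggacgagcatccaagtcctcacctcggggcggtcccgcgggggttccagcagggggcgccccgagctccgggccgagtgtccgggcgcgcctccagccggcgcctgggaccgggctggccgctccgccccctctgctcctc
Bglap: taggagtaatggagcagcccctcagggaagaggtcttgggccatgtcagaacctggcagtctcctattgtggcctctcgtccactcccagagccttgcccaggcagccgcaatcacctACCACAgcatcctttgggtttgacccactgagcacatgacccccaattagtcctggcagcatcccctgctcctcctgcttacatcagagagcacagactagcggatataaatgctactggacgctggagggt

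The Gzmd window held ACCACA from 174 and TGTGGT from 112 bases before the start, and the Gzme window held the same pair from 175 and 113 bases before it. These windows are near copies of each other, with 95.6% identity over the aligned bases and 2 gap positions, so their matches are 1 observation rather than a pair. The Pacsin1 window held TGTGGT from 178 bases before the start and the Bglap window held ACCACA from 132 bases before it, while the letters were not found in the Dapk2 window or in either Alpl window. At least 1 match was found in 14% of the 32851 promoter windows of the same length, and 1.27% held more than 1. Among the 15 largest positive differences between dox and vehicle, 6 of the 12 with a window had a match when Gzmd and Gzme were counted once (those and H2-M9, Mbip, Pacsin1, Stx2 and Vwa7), and among the 15 largest negative ones 2 of 9 did (Ltb4r1 and Serinc2). Over all genes in the table the share was 15.9%. A match is a run of letters and was not tested as a binding site.

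Granzymes D and E, serine proteases of the cytotoxic granule, are best known from mouse lymphocytes. Gzmd (chromosome 14) read 8.76 and 8.63 in the dox arrays, against 7.21 and 6.99 in the vehicle arrays. The dox arrays lay 1.42 above the higher vehicle array and within 0.13 of each other. Gzmd rose 3.01-fold (1.59 ± 0.16 SE, adjusted p = 7.60e-06), and a second, dimmer Gzmd probe differed by 0.58. Gzme, the next gene on the same chromosome, read 7.00 and 7.46 in dox against 6.41 and 5.84 in vehicle, so its arrays did not overlap. Its difference of 1.10 ± 0.23 did not pass (adjusted p = 0.117), although without dox replicate 1 it came to 1.33 with an adjusted p of 0.0438. Without dox replicate 2 it came to 0.88 (adjusted p = 0.493), without vehicle replicate 2 to 0.82 (adjusted p = 0.979), and on slide 1 alone to 1.07 (adjusted p = 0.442). How far the probes tell these similar genes apart was not tested, because probe sequences were not used here. Across the 16 granzyme and cytotoxic granule genes listed, 6 were tested, 3 were positive and 3 negative, and the median was 0.04 (0.20 without vehicle replicate 2 and 0.17 without dox replicate 1). Perforin (Prf1), the pore-forming partner of granzymes in lymphocytes, read 8.06 and 8.42 in dox and 7.91 and 8.25 in vehicle, with overlapping groups.

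Dapk2 and Pacsin1 were the other genes that rose. Dapk2 (chromosome 9), a calmodulin-dependent death-associated protein kinase, read 7.62 and 7.85 in dox arrays against 6.10 and 6.59 in vehicle arrays. The groups stood 1.03 apart, more than the 0.49 between the vehicle replicates, and the rise was 1.39 ± 0.19 (adjusted p = 0.000987). Pacsin1 (chromosome 17), an F-BAR protein of endocytosis described mainly in neurons, read 6.89 and 6.97 with dox, while vehicle arrays read 5.22 and 5.19, below background on both. This probe was above background on arrays with dox only, and so entered the fit only through the groups where it was high. Because the vehicle arrays were below background, the rise is given as at least 2.31-fold (adjusted p = 0.00115). The other Pacsin1 probes did not show it: one, above background on 1 dox and 1 vehicle array, differed by -0.19, and another, below background throughout, by -0.24. Averaging the kept probes of each gene left Pacsin1 at 0.76 (adjusted p = 0.633) and Gzmd at 1.09 (adjusted p = 0.0541). Without vehicle replicate 1, Dapk2 came to 1.14 (adjusted p = 0.0870).

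**Figure D2:**
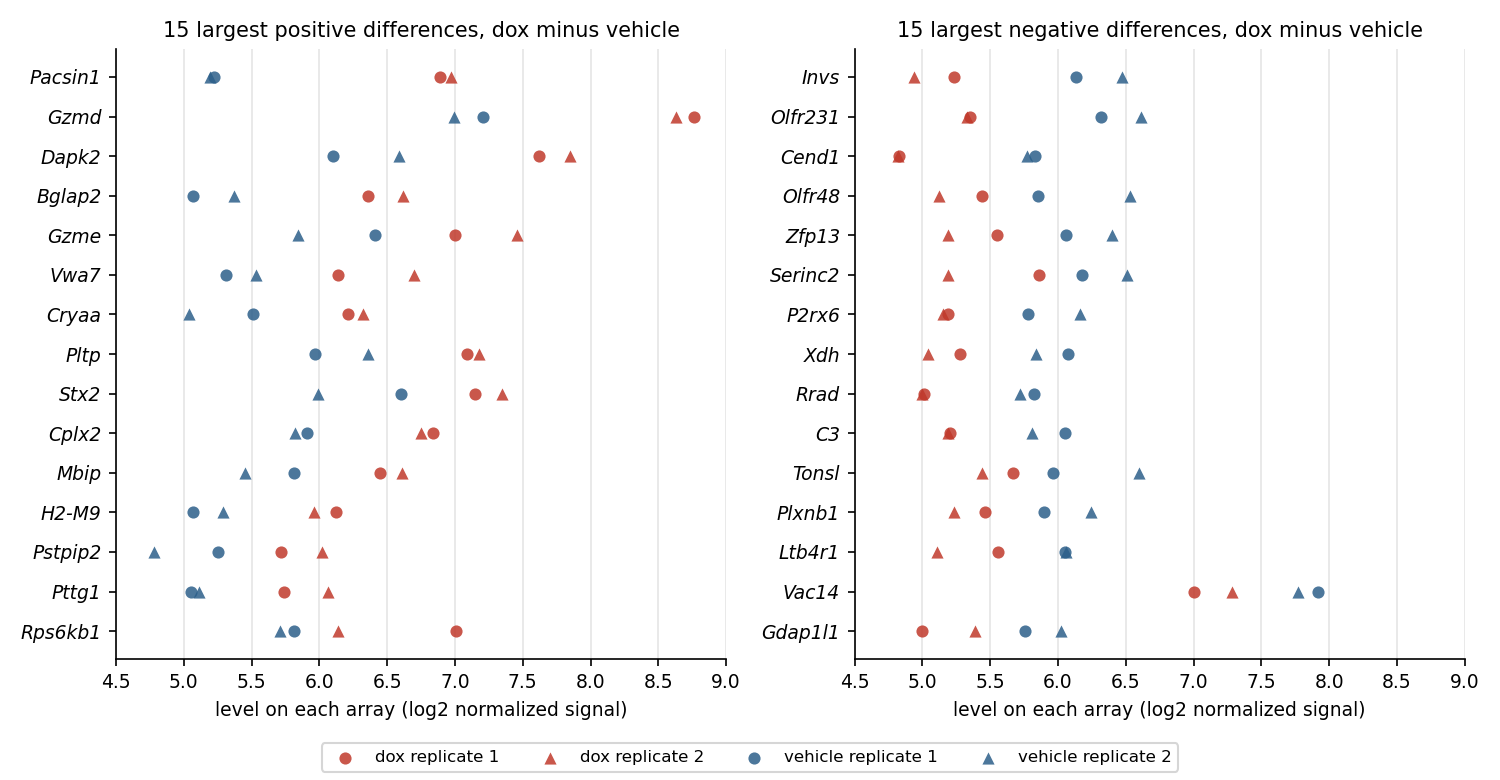
Level on each of the 4 arrays (log2 normalized signal) for the 15 largest positive (left) and 15 largest negative (right) differences, with dox arrays in red, vehicle arrays in blue, circles for replicate 1 and triangles for replicate 2. The rows are selected for groups that do not overlap, and the Gzmd groups lie 1.42 apart. The Pacsin1 and Bglap2 vehicle arrays are below background.

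Genes of the osteoblast programme were higher with dox on both arrays in a few members, none of which passed. Sp7 read 9.16 and 9.14 with dox and 8.55 and 8.48 with vehicle. Each pair was within 0.07 and the groups were 0.60 apart, yet the difference of 0.64 ± 0.12 stayed just outside the threshold (adjusted p = 0.0570). With array weights, or without E2 replicate 1, which enters only through the shared spread, Sp7 had an adjusted p of 0.0343 and 0.0337. Over all alternatives its difference stayed between 0.50 and 0.67 and its adjusted p ran from 0.0337 to 0.898, the highest without vehicle replicate 2, with 0.319 without vehicle replicate 1, 0.320 with no intensity trend and 0.192 on slide 1 alone. Alpl, the alkaline phosphatase of mineralising osteoblasts, read 7.91 and 7.94 in dox arrays and 7.42 and 7.07 in vehicle arrays (0.68 ± 0.19, adjusted p = 0.464). Both dox values again lay above both vehicle values. Tnfsf11 read 9.10 and 8.99 with dox against 8.91 and 8.51 with vehicle (0.33 ± 0.14, adjusted p = 0.679), with the lower dox array only slightly above the higher vehicle array. The Tnfsf11 difference was 0.13 without vehicle replicate 2 and 0.53 without vehicle replicate 1.

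Osteocalcin, the small calcium-binding matrix protein, is encoded in the mouse by near-identical neighbouring genes on chromosome 3, and their probes sat close to background. Bglap2 read 6.36 and 6.62 in dox and 5.07 and 5.37 in vehicle arrays. It was above background on both dox arrays and neither vehicle array, a difference of at least 1.70-fold (adjusted p = 0.117) that did not pass. Bglap read 5.45 and 6.02 in dox and 4.81 and 4.84 in vehicle. Its brightest probe was above background on 1 dox array only, and its other probes differed by -0.05 and 0.30 without leaving the background. Which osteocalcin gene the signal came from cannot be told apart with such similar transcripts.

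Other bone genes overlapped between the groups or were lower with dox, and none of those named here passed. Spp1 (osteopontin), an abundant phosphoprotein of bone matrix, read 14.08 and 14.04 with dox and 13.84 and 14.04 with vehicle (0.12 ± 0.09, adjusted p = 0.828), so that one vehicle array equalled one dox array. Its difference was 0.02 without vehicle replicate 1 and 0.22 without vehicle replicate 2. Mmp13, the collagenase of bone and cartilage that RUNX2 is known to regulate, read 9.90 and 9.81 with dox and 9.91 and 9.70 with vehicle (0.05 ± 0.13, adjusted p = 0.963). Col1a1, the main chain of bone collagen, was slightly lower, at 15.01 and 14.92 with dox against 15.12 and 15.12 with vehicle (-0.15 ± 0.07, adjusted p = 0.683). Ank, the membrane protein that exports pyrophosphate, an inhibitor of mineral, read 9.41 and 9.46 with dox against 9.77 and 9.83 with vehicle (-0.37 ± 0.11, adjusted p = 0.495). Both dox arrays were below both vehicle arrays for these last genes.

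Taken by list, bone genes spread on both sides of 0. Of 34 matrix and mineralisation genes 25 were tested, 9 positive and 16 negative with a median of -0.04 (0.02 without vehicle replicate 2), and 4 were higher and 2 lower at an unadjusted p under 0.05, where 3.19% and 3.57% of all genes were. Of 29 reported RUNX2 targets 17 were tested, 13 positive and 4 negative with a median of 0.08, and 5 were higher (Sp7, Bglap2, Alpl, Bglap and Tnfsf11) and 1 lower (Col1a1). Bglap2 and Bglap were above background on arrays with dox only. On any list they could thus be tested, and counted as higher, only through the group where they were high. Of 24 osteoblast transcription factors 15 were tested, 10 positive and 5 negative, with Sp7 and the BMP-responsive Id3 (0.29) higher and the bHLH factors Twist2 (-0.54) and Twist1 (-0.23) lower at that threshold. Of 27 factors that regulate osteoclasts 18 were tested, 13 positive with a median of 0.02, and Tnfsf11 and the death receptor gene Fas (0.24) were higher. Over all genes 47.5% were positive, and 0 members of these 4 lists passed the adjusted threshold. The lists share members, since Bglap2, Alpl and Sp7 stand on more than 1.

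Several lists away from bone leaned lower in dox against vehicle, with 0 members past the adjusted threshold. Of 35 cell cycle genes tested, 26 were negative with a median of -0.11. Prc1, which bundles the midzone microtubules at cytokinesis, read 10.87 and 10.61 with dox against 11.08 and 11.07 with vehicle, and the checkpoint kinase gene Bub1b read 7.25 and 7.04 against 7.62 and 7.80. The dox arrays were the lower ones in both, and in 11 of the 35 genes both dox arrays lay below both vehicle arrays, where 21.2% of all genes did. Collagens were negative in 13 of 17 genes (median -0.10), with Col18a1 at -0.30 and Col6a1 at -0.16. Glycolysis and hypoxia genes were negative in 18 of 24 (median -0.09, and -0.19 without dox replicate 2), among them Pkm (-0.19), Gapdh (-0.17) and Ldha (-0.15). Inflammatory and NF-kB genes were negative in 10 of 11 tested (median -0.11, but -0.05 over the 27 members with a probe when no detection filter was applied), with C3, Nfkb2 (-0.56) and Irf1 (-0.30) lower at an unadjusted p under 0.05, where 3.57% of all genes were.

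Fewer lists leaned higher in dox against vehicle. Mitochondrial ribosomal protein genes were positive in 35 of 55 with a median of 0.05, and in 17 of them both dox arrays lay above both vehicle arrays (16.9% of all genes) while in 0 they lay below. Mrpl40 at 0.30 and Mrps18c at 0.25 were the 2 of 55 members higher at an unadjusted p under 0.05, where 3.19% of all genes were. Genes of the integrated stress and unfolded protein response were positive in 18 of 26 (median 0.03), and ran from -0.43 to 0.27 (the chaperone gene Dnajb9). At an unadjusted p under 0.05, 1 of the 26 was higher and 0 were lower, against 3.19% and 3.57% of all genes. In lipid synthesis the extremes went opposite ways: Fasn, the fatty acid synthase, read 6.46 and 6.76 with dox against 5.86 and 6.00 with vehicle, while Srebf1, the transcription factor that drives it, read 7.29 and 7.09 with dox against 7.75 and 7.76 with vehicle. Neither passed, at 0.68 ± 0.25 (adjusted p = 0.633) and -0.57 ± 0.18 (adjusted p = 0.552). The Wnt list (17 tested, 10 positive, median 0.01), the BMP and TGF-beta list (35, 15 positive, median -0.01), the matrix protease list (26, 15 positive, median 0.01) and the IGF list (14, 6 positive, median -0.04, or 0.04 without dox replicate 1 and -0.12 without dox replicate 2) lay around 0. Complement and coagulation inhibitors (13, 7 positive) had a median of 0.08, the same as the reported RUNX2 targets.

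**Figure D3:**
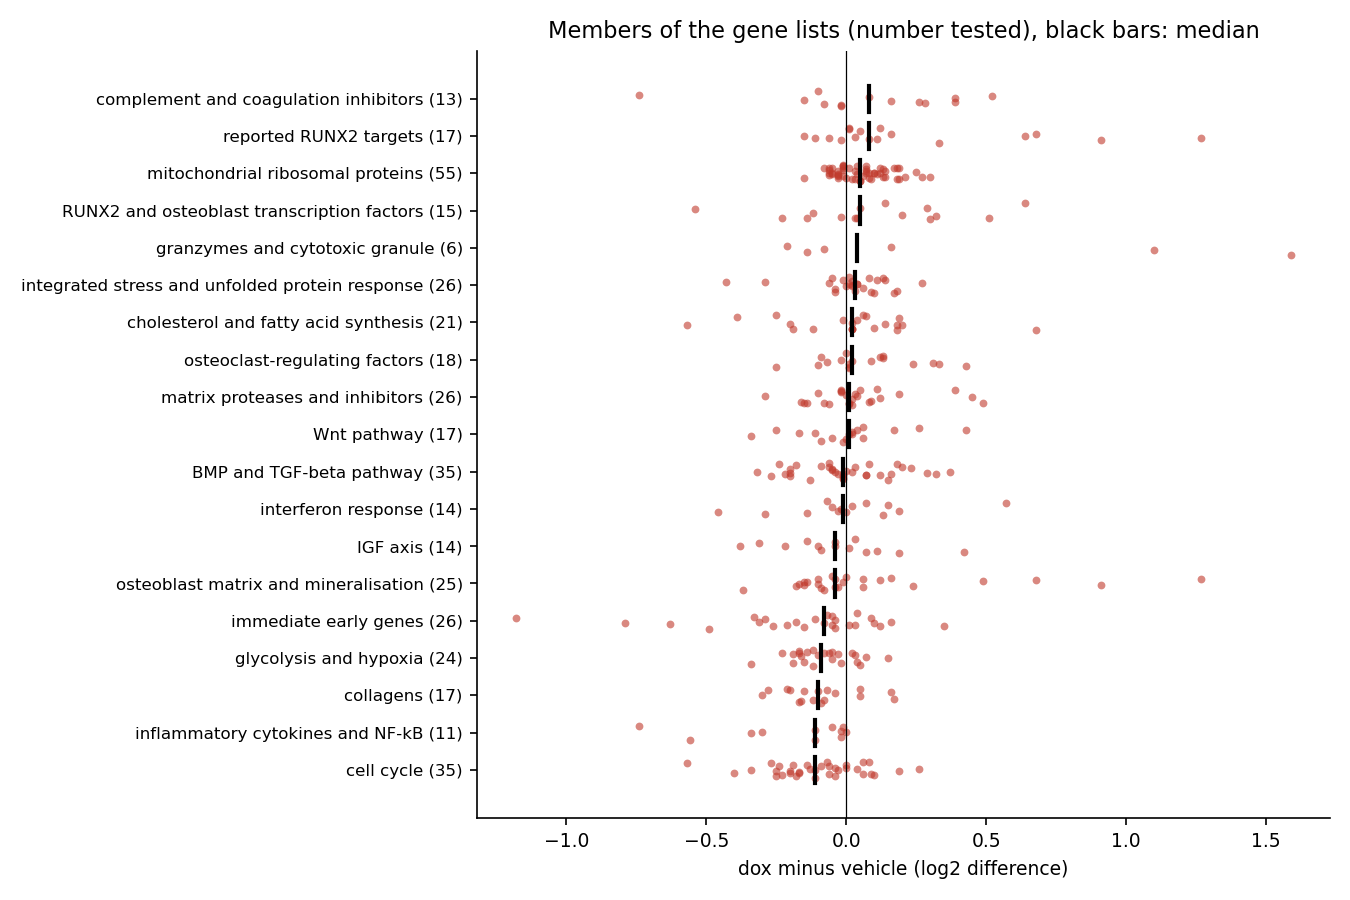
Dox minus vehicle difference (log2, horizontal axis) of each tested member of 19 gene lists, with the number tested in brackets and the median as a black bar. The medians run from -0.11 (cell cycle, and inflammatory and NF-kB genes) to 0.08 (reported RUNX2 targets, and complement and coagulation inhibitors). Single members such as Gzmd at 1.59 and Fos at -1.18 lie far from their list's median.

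The 15 largest positive differences were ranked among genes at an unadjusted p under 0.05 whose groups did not overlap and whose probe was above background on both arrays of a group (288 higher and 329 lower). Being ranked on this difference, they are a description. The fitted values ran from 0.82 to 1.72. In 7 of these genes the probe was below background on both vehicle arrays, so that the fold is a bound (at least 1.11-fold to at least 2.31-fold). The probes of Pacsin1, Bglap2 and Pttg1 were above background on arrays with dox only, and so entered the fit only through the groups where they were high. Below the 5 already described came Vwa7 (at least 1.62-fold), Cryaa, the alpha-A crystallin chaperone of the lens (at least 1.46-fold), and Pltp, a phospholipid transfer protein of plasma lipoproteins (0.97). Stx2 and Cplx2, a syntaxin and a complexin of membrane fusion, stood at 0.95 and 0.93. Mbip differed by 0.90, and H2-M9, a non-classical MHC class I gene, by at least 1.25-fold. Pstpip2, an F-BAR protein whose loss causes autoinflammatory bone disease in mice, and Pttg1 (securin) differed by at least 1.11-fold and 1.13-fold. The dox replicates lay closer to each other than to the vehicle arrays in 14 of the 15, which the selection for groups without overlap favours. The exception was Rps6kb1, the S6 kinase gene, at 7.01 and 6.14 in dox against 5.81 and 5.71 in vehicle, where dox replicate 1 set most of the difference.

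The 15 largest negative differences had fitted values from -1.22 to -0.69, and 12 of them were below background on both dox arrays. Cend1 and Rrad were above background on the vehicle arrays alone, and so entered the fit only through the group where they were high. Invs, which encodes inversin of the primary cilium, led with 5.23 and 4.94 in dox against 6.13 and 6.47 in vehicle (vehicle at least 1.58-fold higher, adjusted p = 0.148). Odorant receptor genes Olfr231 (vehicle at least 1.77-fold higher) and Olfr48 (by the probe used), the neuronal Cend1, the zinc finger gene Zfp13, the ATP-gated channel gene P2rx6, the xanthine dehydrogenase gene Xdh, the GTPase gene Rrad, the complement gene C3, the semaphorin receptor gene Plxnb1, the leukotriene receptor gene Ltb4r1 and Gdap1l1 were likewise above background on vehicle arrays and on neither dox array. The other Olfr48 probe was above background on 1 dox array and neither vehicle array, and differed by 0.49. Serinc2 and Tonsl, a factor of replication fork repair, were above background on 1 dox array. Vac14, a scaffold of the kinase complex that makes phosphatidylinositol 3,5-bisphosphate, was the member above background on all 4 arrays, at 7.00 and 7.28 with dox and 7.92 and 7.77 with vehicle (-0.70 ± 0.19, adjusted p = 0.448). None of the 15 passed.

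Since 0 of those 30 genes lay above the median level, a further ranking, chosen after these values were seen, was made over the 4745 genes above the median level with a probe above background on all 4 arrays. In it 187 genes were higher and 212 lower at an unadjusted p under 0.05 (3.94% and 4.47%). Sp7 led the higher ones, followed by Rps25, a protein of the small ribosomal subunit, at 12.98 and 12.99 with dox against 12.42 and 12.70 with vehicle (0.42 ± 0.12, adjusted p = 0.464). Atp6v1g1, a subunit of the vacuolar proton pump, read 10.57 and 10.68 with dox against 10.24 and 10.21 with vehicle (0.41 ± 0.09, adjusted p = 0.230), and the secreted Olfml3 read 9.55 and 9.56 against 9.11 and 9.20 (0.40 ± 0.11, adjusted p = 0.471). In each the dox arrays were the higher pair. LOC669660, Eef1e1, Cd3eap, Hspe1, Rpa3, Cnih4, Mrrf and Rbm45 completed the 12, down to 0.37.

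At the lower end of the same ranking were Kif22 and Dhx9, a chromosome-bound kinesin and an RNA helicase, both at -0.49. Tbc1d2b, a Rab GTPase-activating protein, read 10.36 and 10.15 with dox against 10.71 and 10.76 with vehicle (-0.48 ± 0.10, adjusted p = 0.140). Gpnmb, a transmembrane glycoprotein also called osteoactivin, read 10.70 and 10.84 with dox against 11.14 and 11.25 with vehicle (-0.43 ± 0.09, adjusted p = 0.148). Gsk3b, the kinase that marks beta-catenin for destruction, read 9.05 and 9.03 against 9.56 and 9.37 (-0.43 ± 0.13, adjusted p = 0.495). All of these had both dox arrays below both vehicle arrays. Lrrk1, a kinase gene whose loss impairs osteoclast resorption in mice, differed by -0.43, the insulin receptor substrate gene Irs2 by -0.38, and Prpf8, Ctdspl, B4galt3, Evc2 and Myo18a by -0.42 to -0.38.

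The arrays with E2 give the same contrast on other arrays, since dox plus E2 against E2 shares no array with dox against vehicle, although the fit shares its estimate of spread. Of the 15 largest positive differences, 8 were positive there, with a median of 0.17 against 0.97 without E2. Of all genes 51.1% were positive with E2. The first 5 stood apart from the rest: Pacsin1 (at least 2.17-fold, adjusted p = 0.000137), Gzmd (1.82 ± 0.15, adjusted p = 7.98e-08), Bglap2 (at least 1.98-fold, adjusted p = 0.00446), Gzme (1.26 ± 0.21, adjusted p = 0.00693) and Dapk2 (1.00 ± 0.18, adjusted p = 0.0110) all rose with dox in the presence of E2. Pacsin1 and Bglap2 are given as bounds because all 3 E2 arrays were below background for them. Their probes were above background on arrays with dox only, and so entered the fit only through the groups where they were high. The fitted values of the other 10 lay between -0.40 (Pstpip2) and 0.26 (Cryaa) with E2, and none passed. Sp7 (0.72 ± 0.11, adjusted p = 0.00394) and Alpl (0.99 ± 0.17, adjusted p = 0.00889) rose with dox there as well. These 7 genes are all that passed with E2 (0.0738%). Without dox plus E2 replicate 2 that count was 3, and without replicate 3 it was 2.

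Of the 15 largest negative differences, 12 were also negative with E2, but with a median of -0.10 against -0.79, and none passed. Invs was below background on both dox plus E2 arrays (E2 at least 1.23-fold higher, adjusted p = 0.668), and Vac14 was at 0.32 ± 0.18 (adjusted p = 0.857). Of the 12 brighter genes with the largest positive differences, 7 were positive with E2, with a median of 0.04 against 0.40. The corresponding 12 lower genes had 4 negative and a median of 0.04 against -0.42. By list, the medians with E2 were -0.00 for cell cycle genes (17 of 35 positive) and -0.02 for collagens (6 of 17). They were -0.05 for glycolysis and hypoxia genes (7 of 24) and 0.08 for inflammatory and NF-kB genes (7 of 11). Mitochondrial ribosomal protein genes had -0.00 (26 of 55 positive), and integrated stress and unfolded protein response genes 0.01 (13 of 26). Over the whole set at an unadjusted p under 0.05 without E2, 27 of 303 higher genes were also higher at that threshold with E2, where 2.96% of all genes were, and 15 of 339 lower genes were also lower, where 3.27% of all genes were (6.23% in either direction). The test of the difference between the dox effects gave 0 genes at an adjusted p under 0.05 (lowest adjusted p = 0.530) and 653 at an unadjusted p under 0.05 (6.88%). No gene was therefore shown to respond differently with and without E2, and a dox effect that differs between slides could not be separated from E2 in that test.

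**Figure D4:**
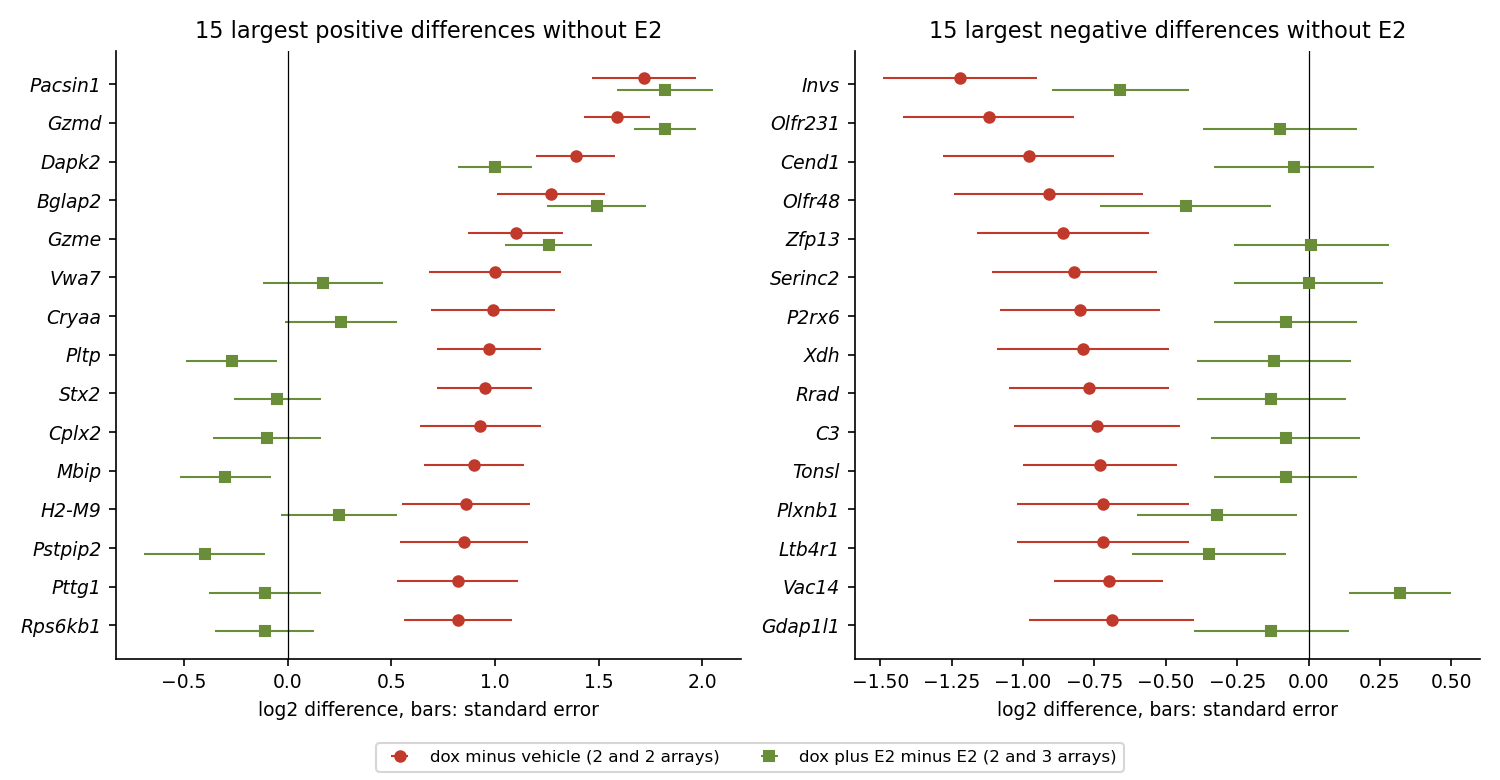
Dox minus vehicle (red circles) and dox plus E2 minus E2 (green squares) as log2 differences with their standard errors, for the 15 largest positive (left) and negative (right) differences without E2. Values are as fitted, and those of Pacsin1 and Bglap2 are not exact because their vehicle and E2 arrays were below background. Gzmd, Dapk2 and Gzme are at or above 1.00 in both comparisons, and the 10 genes below these on the left lie between -0.40 and 0.26 with E2.

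The dox replicates disagreed in some genes. They differed by more than 1 in 51 genes (0.537%), with replicate 1 higher in 25 and replicate 2 higher in 26, against 27 genes for the vehicle replicates. In 34 of the 51 the probe was above background on 1 dox array only, and 4 had a level above the median gene. In 1770 genes (18.7%) 1 dox array lay above both vehicle arrays and the other below both. Arrays that do not differ also fall into this order in part of the genes, so the count alone does not show disagreement. The 3 genes that rose were not among those that disagreed: their dox arrays differed by 0.13 (Gzmd), 0.23 (Dapk2) and 0.08 (Pacsin1). The difference between the dox arrays enters the spread used in the test, so such closeness favours passing and is not separate evidence.

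The brightest disagreements were in immediate early genes, which cells induce within minutes of a stimulus. Fos, the AP-1 subunit, read 10.41 and 7.52 in the dox arrays and 10.06 and 10.23 in the vehicle arrays, so that dox replicate 1 lay with vehicle and dox replicate 2 far below. Egr1, a zinc-finger transcription factor, read 13.78 and 12.23 with dox against 13.71 and 13.88 with vehicle, and Zfp36, which destabilises AU-rich mRNAs, read 10.62 and 9.19 against 10.43 and 10.64. Junb (10.67 and 9.84 with dox, 10.61 and 10.51 with vehicle) and Egr2 (8.70 and 7.48 with dox, 8.57 and 8.58 with vehicle) had the same form, with dox replicate 2 alone below the other 3 arrays. The fitted differences of Fos (-1.18 ± 0.44, adjusted p = 0.633), Egr1 (-0.79 ± 0.24, adjusted p = 0.495) and Zfp36 (-0.63 ± 0.23, adjusted p = 0.633) average these unlike arrays. Leaving out dox replicate 1 gave 5 genes higher and 6 lower past the threshold, the lower ones being Fos (-2.63), Egr1 (-1.57), Zfp36 (-1.35), Junb (-0.72), Hmga1 (-0.59) and Tbc1d2b (-0.59). Leaving out dox replicate 2 turned Fos to 0.27 and gave 4 genes higher and 0 lower.

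Across the immediate early list, 22 of 26 genes were higher in dox replicate 1 than in replicate 2 (84.6%, against 52.6% of all genes), with a median difference of 0.30. Dox replicate 2 lay below both vehicle arrays in 16 of the 26 and dox replicate 1 in 5. Gadd45b, a growth-arrest gene, went its own way, at 9.89 and 9.93 with dox against 9.55 and 9.58 with vehicle (0.35 ± 0.10, adjusted p = 0.495), with the dox replicates alike and both higher. Myc was the gene most clearly lower in dox replicate 1, at 6.71 and 7.31 with dox and 7.29 and 7.31 with vehicle. The arrays of slide 2, all with E2, read 7.12 to 7.33 for Fos, 11.69 to 11.81 for Egr1 and 8.97 to 9.27 for Zfp36, near dox replicate 2, while Egr2 read 5.70 to 6.34 there, below dox replicate 2 as well. What set the dox replicates apart was not tested.

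**Figure D5:**
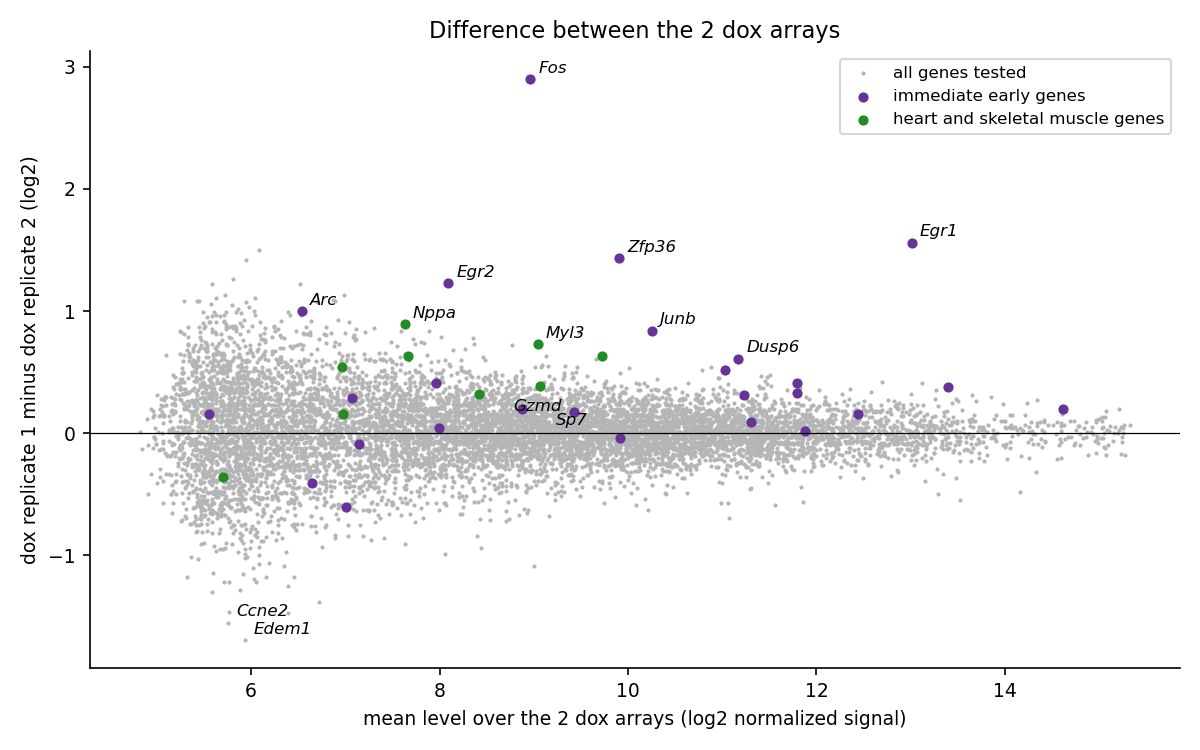
Dox replicate 1 minus dox replicate 2 (log2, vertical axis) against the mean level over both dox arrays (log2 normalized signal, horizontal axis) for all genes tested, with immediate early genes in purple and heart and skeletal muscle genes in green. Fos (2.90), Egr1 (1.56) and Zfp36 (1.43) stand far above the cloud, and Gzmd and Sp7 lie close to 0.

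Muscle and interferon genes also differed between the dox replicates. Of 9 heart and skeletal muscle markers tested, 8 were higher in dox replicate 1 (median 0.54), among them the myosin light chain gene Myl3 at 9.41 and 8.68 with dox against 8.84 and 8.65 with vehicle. Their summed linear normalized signal was 3580 and 2454 in the dox arrays and 2653 and 2597 in the vehicle arrays, which puts dox replicate 1 above the other 3 arrays. The part of muscle cells in the dox minus vehicle differences was not tested. The atrial peptide gene Nppa differed more between the vehicle replicates (6.58 and 8.56) than between the dox replicates (8.07 and 7.18). Interferon-response genes ran the opposite way, with 1 of 14 higher in dox replicate 1 (52.6% of all genes were) and a median of -0.27. The vehicle replicates leaned the same way by count, with 2 of 14 higher in vehicle replicate 1, but by a median of only -0.05. Irf9, part of the interferon-activated transcription complex, read 8.08 and 8.78 with dox and 8.35 and 8.38 with vehicle, so that the vehicle arrays lay between the dox arrays.

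The remaining large disagreements were mostly at the edge of background. Edem1, which helps clear misfolded proteins from the endoplasmic reticulum, read 5.09 and 6.78 with dox and 6.87 and 5.87 with vehicle, so both groups were split. Ccne2 (cyclin E2) read 4.97 and 6.52 with dox and 5.73 and 5.84 with vehicle, and Pogz, a chromatin-associated zinc finger protein, read 5.66 and 7.13 with dox and 6.63 and 6.50 with vehicle. In both, dox replicate 1 was the lowest array and replicate 2 the highest. Klhl8 and Slc35e4 were higher in dox replicate 1, and Trim6, LOC100038882, Spred2 and Igtp, an interferon-induced GTPase gene, in dox replicate 2. None of these 9 genes had an unadjusted p under 0.05 for dox against vehicle.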

How the data were processed

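Total RNA of primary mouse calvarial osteoblasts was hybridised to 9 Illumina bead arrays, grouped by their titles. Per the file headers, the main deposited table gives each probe an average bead signal, a linear intensity without background subtraction by its values, and a detection p-value, in steps of 1 in 798. GenomeStudio 2011.1 is named in the submitters' processing notes, with the build not given in the sources used here. A second deposited table of intensity values scaled by the authors matched a quantile normalization of the signals within 0.512% and served as an alternative.

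Symbols were updated with RefSeq (GRCm38.p6): the symbol was current for 20733 probes, replaced by way of a synonym for 3876, set by hand for 3 and left as in the file for 1085. Signals of all 9 arrays were background-corrected (normexp), quantile normalized and log2-transformed with an offset of 16 (neqc, limma 3.58.1, R 4.3.3), which shrinks differences of dim probes and hides a shift of most genes. A probe needed a detection p-value under 0.05 on 2 or more arrays, and the brightest such probe represented a gene. Some probes, such as those of Pacsin1, Bglap2 and Bglap, met this on arrays with dox only. A mean per group was fitted over 9 arrays with an intensity trend, since 2 arrays against 2 leave few degrees of freedom, and two-sided moderated tests were adjusted by Benjamini-Hochberg over all genes. The number of arrays limits the precision. A bound sets the brighter group's mean against the higher of the dim probe's level and the lowest level above background. Replicate numbers were not used to pair the arrays. The deviations of dox and vehicle arrays with the same number had a correlation of -0.058, which cannot show whether they shared a culture or animal.

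Named genes were a set list, the 15 largest differences each way at an unadjusted p under 0.05 without overlap, the genes whose replicates differed most, and list members of smallest p. The members and lists were chosen with earlier results of these data known, so lists are described by counts and medians. Promoters came from the RefSeq table. The script was tested on simulated data. Plots used matplotlib 3.10.9 and Python 3.11.15. Alternatives covered normalization, offset, detection filter, arrays fitted, probe choice, variance trend, array weights, replicate block and leaving out each array.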

Additional observations from a re-analysis of the deposited data

How the results depend on the processing

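Leaving out each array in turn gave 2 to 5 genes higher with dox and 0 to 6 lower past the adjusted threshold, and 192 to 365 higher and 196 to 434 lower at an unadjusted p under 0.05. The mean of each gene's probes left 1 gene higher (Dapk2), and without a detection filter (17920 genes) the unadjusted counts were 517 and 514, with more genes tested. With the replicate block 3 genes were higher and 0 lower in dox against vehicle, and 4 higher and 1 lower in dox plus E2 against E2. Whether the numbers pair the arrays is not stated in the labels, and the block is given only as an alternative. In dox plus E2 against E2, 3 genes were higher with no intensity trend, 1 was lower with array weights, and leave-outs gave 2 to 7 higher and 0 to 2 lower. The fit of slide 1 alone holds no E2 arrays and gave no value there. Dapk2 kept 1.39 with no intensity trend but had an adjusted p of 0.0750. The scaled table of the authors, with no background subtraction, gave smaller differences for Gzmd (1.03), Dapk2 (0.70) and Pacsin1 (0.65), all of which passed. Genes whose dox replicates differed by over 1 numbered 3 in that table, 8 with an offset of 50, 33 with the filter on both arrays of a group, and 51 in the reported setting. Leaving out arrays moved Fos between -2.63 and 0.27 and Mmp13 between -0.06 and 0.16, the sign turning without dox replicate 2 for Fos and without vehicle replicate 2 for Mmp13. Of 504 list medians over 28 lists, 26 moved by more than the spread. The cause of these changes was not tested. Dim probes limit most of the largest differences, which were read near background.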
